A study of Homo sapiens with 9 samples.

Results

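The genes described here encode the proteasome, the protease that degrades ubiquitin-tagged proteins. They were chosen by name, as protein-coding genes whose symbol starts with PSMA to PSMG followed by a number. The rule took 50 of 60230 genes. PSMC3IP and PSME3IP1 matched by name but encode partner proteins that are not subunits, so they were set apart and 48 proteasome genes remained. Another 51 name matches, of which 43 are pseudogenes and 7 are long non-coding RNAs, fell outside the rule.

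The proteasome core is a stack of rings, with outer rings of alpha subunits and inner rings of beta subunits, and 3 of the beta subunits (PSMB5, PSMB6 and PSMB7) carry the cutting sites. In immune cells and in cells exposed to interferon, PSMB8, PSMB9 and PSMB10 are built in instead of these 3, and the resulting immunoproteasome yields peptides suited to presentation on MHC class I. A cap binds each end of the core, with a ring of ATPases that unfolds substrates and a lid that removes ubiquitin. Other activators (PSME1 to PSME4) can take the place of the cap, and dedicated chaperones assemble the rings.

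Poly(A) RNA was sequenced from NCI-H358 lung cancer cells, a long-established human line, in 3 states with 3 libraries each. Resistant cells on drug were NCI-H358-R cells given 250 nM sotorasib, a targeted cancer drug, and harvested on day 4. Resistant cells off drug were NCI-H358-R cells without sotorasib, for a time that the labels leave out, and parental cells were drug-sensitive NCI-H358 cells with no treatment. NCI-H358-R is a single derivative line, obtained by growing the parental line in 250 nM sotorasib for about 2 months, and medium in every state held 10% serum. Differences between NCI-H358-R and the parental line therefore cannot be told apart from differences that arose in that line for other reasons. Separate cultures are not stated for the libraries of a state, and p-values therefore measure only how far these libraries spread, which may be technical.

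Library totals were 33394741 to 34727826 estimated counts on drug, 25728092 to 33988889 off drug and 25698500 to 31787105 in parental cells, and 3 counts correspond to 0.0864 to 0.117 CPM (counts scaled to library size). The on-drug libraries stood apart, with scaling factors (TMM) of 1.113 to 1.124 against 0.917 to 0.972 in the other libraries. Epithelial markers of the line were present in every state, as the 6 epithelial markers summed to 4007 to 4772 CPM on drug, 6848 to 7050 off drug and 6665 to 8058 in parental cells. The 7 leukocyte markers summed to at most 7.856 CPM in any library. PTPRC lay at or below 0.183 CPM, and CD3E was at 0 in every off-drug and parental library. The sum covers changes in both directions. By the test described below, 1 of the 4 leukocyte markers tested was higher and 2 lower in each resistant state than in parental cells. Log2 fold changes ran from -5.73 to 5.2 off drug and from -4.49 to 5.68 on drug. Over all genes tested, 28.4% were higher and 26.6% lower off drug, and 33.4% and 32.9% on drug. The 6 fibroblast markers summed to 125.5 to 157.5 CPM on drug, 17.74 to 18.3 off drug and 26.99 to 31.05 in parental cells, with COL3A1 at 0 off drug and in parental cells. The 4 endothelial markers summed to 13.32 to 17.6 CPM on drug, 25.3 to 26.75 off drug and 9.792 to 12.78 in parental cells. The part of these differences in the results below was not tested.

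Of the 48 genes, 47 passed the filter on low counts. PSMB11, the catalytic subunit of cortical thymus epithelium, had 0 counts in every library and was not tested. The 3 comparisons among the states share libraries, so their values are set side by side without a test between them. A gene was called higher or lower at an adjusted p under 0.05 in edgeR's quasi-likelihood test, with Benjamini-Hochberg adjustment over 17307 genes.

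On drug against off drug, 8 of the 47 genes were higher (17%) and 9 lower (19.1%), where 31.4% of all genes tested were higher and 31.2% lower (62.6% in either direction). The median log2 fold change of the 47 was 0.00, against 0.02 over all genes. Off drug against parental cells, 16 were higher (34%) and 7 lower (14.9%), where the background was 28.4% higher and 26.6% lower (55% in either direction), with medians of 0.08 and 0.00. On drug against parental cells, 19 were higher (40.4%) and 14 lower (29.8%), where the background was 33.4% and 32.9% (66.3% in either direction), with medians of 0.13 and 0.02. The family's shares were thus below the background on drug against off drug and on both sides of it in the other comparisons, and most changes were small. Calls of at least 2-fold on drug against off drug were 1 lower (PSMB9) and 0 higher, where 11.3% of all genes tested were lower and 13.5% higher by that rule (24.8% in all). Off drug against parental cells they were 1 higher (PSMA8) and 0 lower, where 7.49% were higher and 9.73% lower (17.2% in all). On drug against parental cells they were 4 higher (PSMA8, PSMC5, PSMD2 and PSME3) and 1 lower (PSMB9), where 13.4% were higher and 13.9% lower (27.3% in all).

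Scaling bore on these counts. With library size alone in place of TMM, the median of all genes moved by 0.26 on the log2 scale on drug against off drug, and called proteasome genes there became 29 higher and 3 lower. On the TPM scale (transcript abundance adjusted for length) the median moved by 0.20, and 25 were higher and 4 lower. Among all called genes, the share called higher in that comparison was 50.1% with TMM, 68.5% by library size and 64% in TPM. On drug against parental cells it was 50.4% with TMM, 64.3% by library size and 69.7% in TPM, and off drug against parental cells it was 51.6% with TMM and 64.6% in TPM. Signs also turned under another setting without a call on either side for 17 of the genes on drug against off drug, 12 off drug against parental cells and 9 on drug against parental cells. The sign of those genes therefore depends on the setting, which may be a scale, a filter or a library left out.

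**Figure D1:**
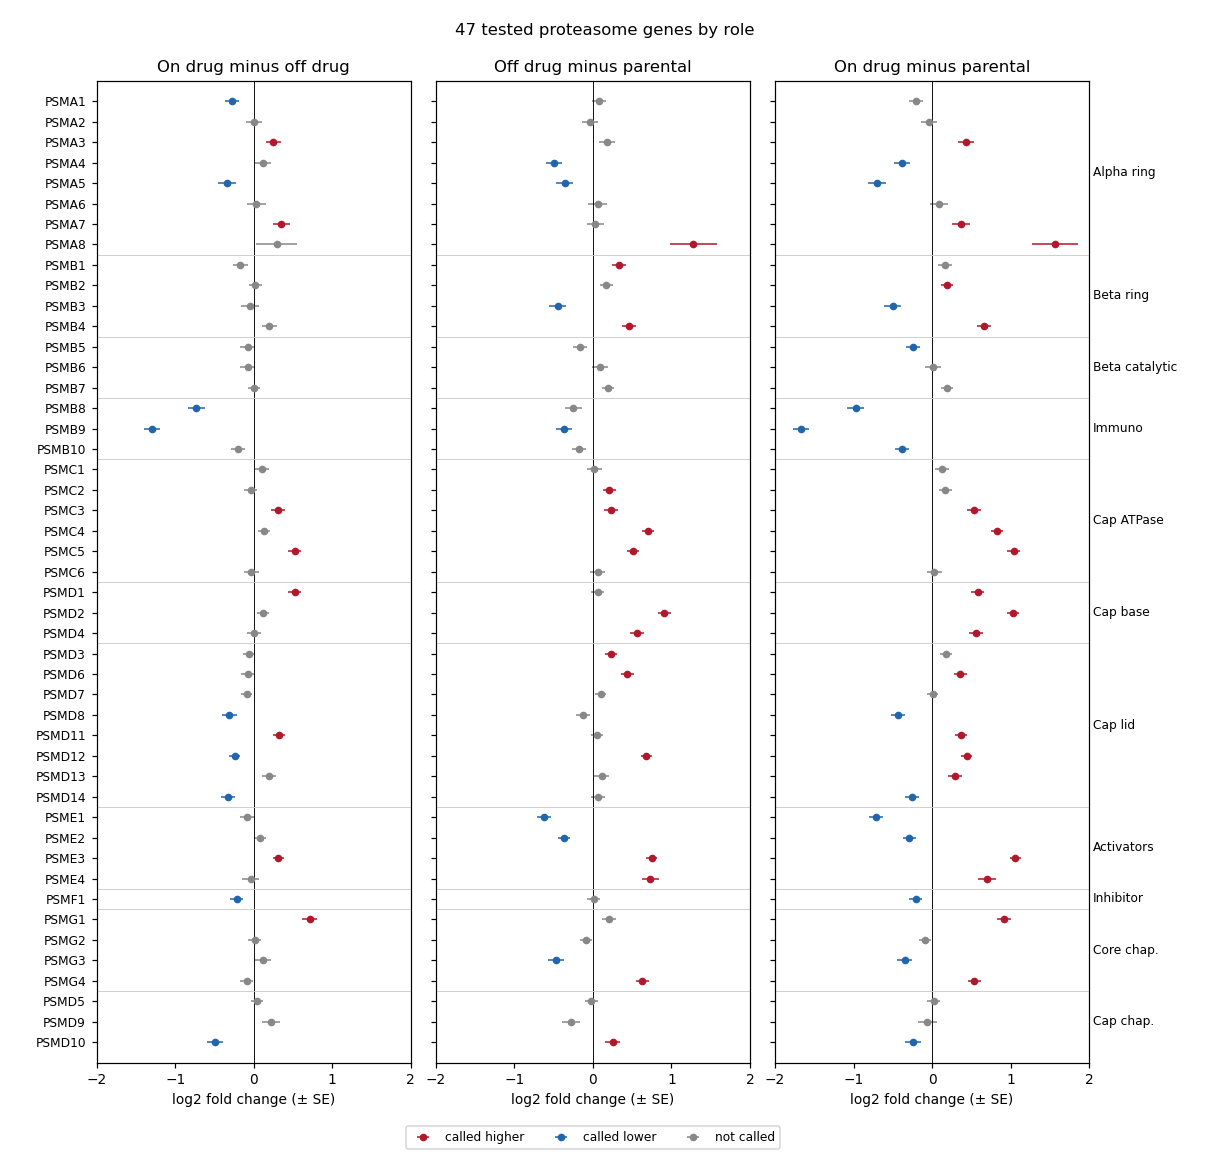
Log2 fold change (x axis, TMM-scaled counts) with its standard error for the 47 tested proteasome genes, grouped by role down the page, in the 3 comparisons (panels). Red points were called higher, blue lower and grey not called. The immunoproteasome genes lie left of 0 in every panel (PSMB10 turns to 0.28 and 0.31 in TPM on drug), and no cap gene shown was called lower off drug against parental cells. SEM1, a lid subunit with another symbol, is not shown.

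The immunoproteasome genes PSMB8 and PSMB9 fell on drug, and the constitutive genes whose places they take were not called on drug against off drug with TMM scaling. Of the 3 immunoproteasome genes, 2 were lower on drug than off drug, where 31.2% of all genes tested were lower. Off drug against parental cells 1 was lower (33.3%), near the background of 26.6%. On drug against parental cells 3 were lower, against 32.9% of all genes, though PSMB10 turned to 0.31 in TPM. The medians were -0.73, -0.25 and -0.97 on the log2 scale, in that order. None of the 3 was called higher with TMM scaling. The RNA comes from bulk cultures, so fewer cells that express a gene and less RNA per cell cannot be told apart.

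PSMB9 (ENSG00000240065.8, chromosome 6, 32844136 to 32859585, plus strand, GRCh38) encodes the subunit that replaces PSMB6. Its level was 12.8, 12.9 and 12.4 CPM in the on-drug libraries, 31.9, 28.4 and 33.6 CPM off drug and 38.2, 37.8 and 45.8 CPM in parental libraries. The 3 states did not overlap. PSMB9 was lower on drug than off drug (log2 fold change -1.30 ± 0.10 SE, adjusted p = 1.3e-08) and lower on drug than in parental cells (-1.67 ± 0.10, adjusted p = 5.1e-10). It was also lower off drug than in parental cells (-0.37 ± 0.10, adjusted p = 0.0035), a call lost on the log2(TPM + 1) scale with no filter on low values (adjusted p = 0.054).

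PSMB8 (ENSG00000204264.12, chromosome 6, 32840717 to 32844703, minus strand) replaces PSMB5 and lies beside PSMB9 and TAP1 in the MHC class II region. It was measured at 93.5, 120 and 104 CPM on drug, 178, 152 and 196 CPM off drug and 203, 188 and 235 CPM in parental libraries. The on-drug libraries lay below every other library, while off-drug and parental ranges overlapped. PSMB8 was lower on drug than off drug (-0.73 ± 0.11, adjusted p = 4e-05) and than in parental cells (-0.97 ± 0.11, adjusted p = 1.5e-06), and off drug against parental cells it missed the threshold (-0.25 ± 0.11, adjusted p = 0.074) but passed it under 9 of 21 alternatives, 4 of which left out a library (on-drug replicate 1, on-drug replicate 2, off-drug replicate 3 or parental replicate 2).

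PSMB10 (ENSG00000205220.12, chromosome 16, 67934502 to 67937087, minus strand) replaces PSMB7 and lies away from the MHC. Its levels were 26, 26.9 and 26.1 CPM on drug, 30.5, 27.4 and 32.8 CPM off drug and 31.7, 33.5 and 37.7 CPM in parental libraries. It was called lower on drug than in parental cells (-0.38 ± 0.09, adjusted p = 0.0017) and missed the threshold on drug against off drug (-0.20 ± 0.09, adjusted p = 0.068) and off drug against parental cells (-0.18 ± 0.09, adjusted p = 0.11, and 0.03 in TPM). On the log2(TPM + 1) scale PSMB10 turned round and was higher on drug, by 0.28 against off drug and by 0.31 against parental cells. PSMB8 and PSMB9 kept their direction and call under every alternative on drug against off drug and against parental cells.

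Of the 3 constitutive catalytic genes 1 was called in the main fit (TMM, all 9 libraries), in 1 comparison. PSMB5, the chymotrypsin-like site, averaged 145.4 ± 6.72 CPM on drug, 153.5 ± 5.98 off drug and 171.1 ± 18.5 in parental cells (SD, n = 3 each). It was called lower on drug than in parental cells (-0.24 ± 0.09, adjusted p = 0.023), a call that was lost under 7 alternatives, among them those without on-drug replicate 1, on-drug replicate 3 or parental replicate 3, and turned to 0.15 in TPM. PSMB6, the caspase-like site, averaged 56.36 ± 3.43 CPM on drug, 59.62 ± 3.37 off drug and 55.92 ± 8.65 in parental cells, and PSMB7, the trypsin-like site, 191.2 ± 9.64, 190.9 ± 13.1 and 167.3 ± 13 CPM. Neither was called in any comparison in the main fit, though PSMB7 was called higher in TPM on drug against off drug (0.24) and against parental cells (0.50). On drug against parental cells PSMB7 narrowly missed the threshold (0.19, adjusted p = 0.053). It passed there with DESeq2, limma voom, no filter, upper-quartile scaling and library size, and without parental replicate 3. Off drug against parental cells, PSMB6 and PSMB7 were each called higher in TPM and without parental replicate 3. For PSMB6, log2 fold changes were -0.08 ± 0.10 on drug against off drug, which turned to 0.05 with upper-quartile scaling, 0.17 by library size and 0.18 in TPM, and 0.01 ± 0.10 on drug against parental cells, which was called at 0.24 by library size and 0.42 in TPM.

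**Figure D2:**
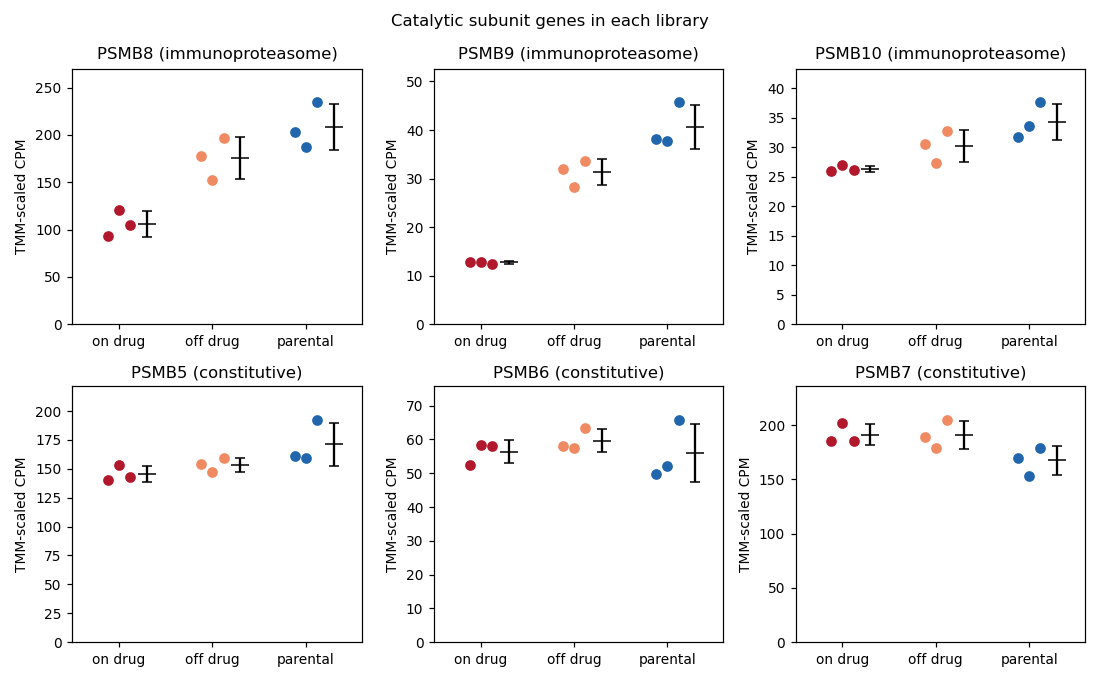
TMM-scaled CPM (y axis, from 0) of the 3 immunoproteasome genes (top) and the 3 constitutive catalytic genes (bottom) in each library on drug, off drug and in parental cells. Bars are the mean and SD of 3 libraries. PSMB9 lies near 12.7 CPM on drug against 31.3 CPM off drug, while PSMB6 lies near 56.4 and 59.6 CPM.

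Ratios within a library do not depend on scaling between libraries. Summed over the 6 catalytic genes in TPM, the immunoproteasome genes held 21.5, 22.7 and 22.3% on drug, 30.6, 28.9 and 30.7% off drug and 33.6, 34.2 and 35% in parental libraries. The means were 22.2 ± 0.58, 30.1 ± 1 and 34.2 ± 0.73% (SD, n = 3 each), and the states did not overlap. The ratio of PSMB9 to PSMB6 TPM was 0.17 ± 0.012 on drug, 0.393 ± 0.019 off drug and 0.553 ± 0.022 in parental cells, again without overlap. PSMB8 to PSMB5 stood at 0.545 ± 0.045 on drug, 0.85 ± 0.074 off drug and 0.908 ± 0.028 in parental cells, with off-drug and parental libraries overlapping. In TPM, PSMB10 to PSMB7 stood at 0.139 ± 0.0075 on drug, 0.134 ± 0.0036 off drug and 0.16 ± 0.02 in parental cells, and the on-drug libraries overlapped both other states. In counts it was 0.138 ± 0.0041 on drug, 0.158 ± 0.0043 off drug and 0.205 ± 0.016 in parental cells, without overlap. These are descriptions, without a test.

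**Figure D3:**
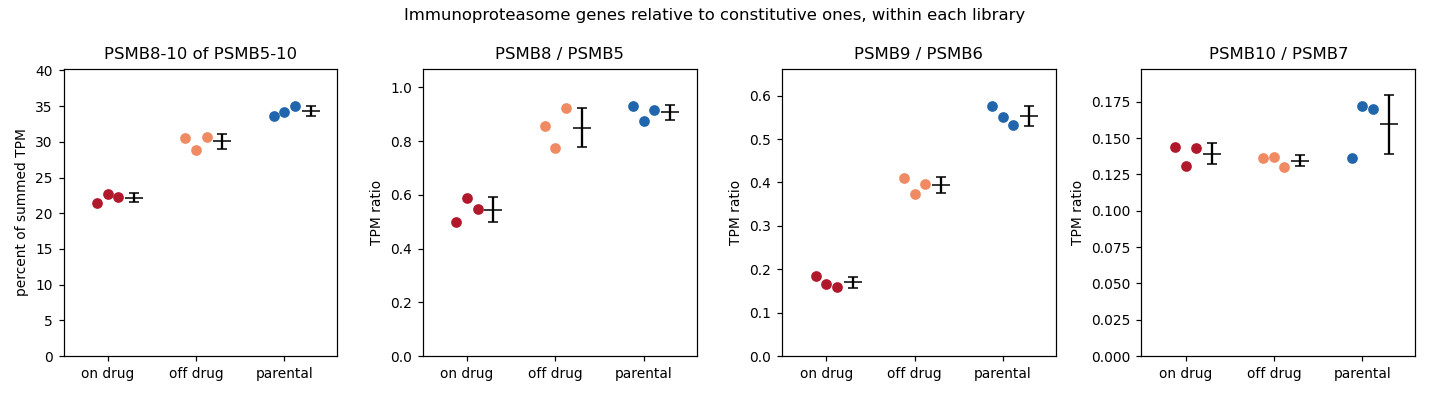
Share of the summed TPM of PSMB5 to PSMB10 held by PSMB8, PSMB9 and PSMB10 (left, percent) and the TPM ratio of each immunoproteasome gene to the constitutive gene it replaces, per library, with the mean and SD of 3 libraries. The share averages 22.2% on drug, 30.1% off drug and 34.2% in parental cells, and the PSMB10 ratio shows no such order in TPM, unlike in counts (0.138, 0.158 and 0.205 in the same order of states).

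Interferon raises immunoproteasome genes through factors that bind GAAA repeats, so promoters were searched on both strands for a paired repeat, GAAA, then any 2 bases, then GAAA. RefSeq promoter windows on GRCh38.p14, 250 bases before to 50 after each start site, were at hand for 42 of the 48 genes (51 windows, as some genes have several start sites). The paired GAAA repeat was in at least 1 window of 7 of the 42 genes (16.7%), against 4.38% of 27305 genes. The 7 matches are shown because they include PSMB8, PSMB10, PSME1 and PSME2, and capitals mark the motif, which reads TTTC, any 2 bases, TTTC where it lies on the other strand. Each stretch runs 5′ to 3′ on the strand of its gene.
PSMB8, chr6:32844032-32844061, minus strand: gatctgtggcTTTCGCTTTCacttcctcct
PSMB10, chr16:67936852-67936881, minus strand: gggtaaaggcGAAAGCGAAAgcaggaagta
PSME1, chr14:24136189-24136218, plus strand: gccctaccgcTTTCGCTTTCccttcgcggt
PSME2, chr14:24146619-24146648, minus strand: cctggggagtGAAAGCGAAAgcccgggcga
PSMG4, chr6:3258904-3258933, plus strand: ttccggggccGAAAGCGAAAgcgcgctcgg
PSMA4, chr15:78540155-78540184, plus strand: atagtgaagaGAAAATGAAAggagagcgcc
PSMB4, chr1:151399495-151399524, plus strand: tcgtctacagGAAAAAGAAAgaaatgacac
PSMB8, PSMB10, PSME1, PSME2 and PSMG4 held GC between the repeats on the strand that reads GAAA, while PSMA4 held AT and PSMB4 AA. On drug against off drug 1 of the 7 genes was lower (PSMB8) and 6 were not called. Off drug against parental cells, 3 were lower (PSMA4, PSME1 and PSME2) and 2 higher (PSMB4 and PSMG4). On drug against parental cells 5 were lower and 2 higher, so genes with the motif went in both directions. Of the 5, PSMB10 turned to 0.31 and PSME2 to 0.08 in TPM, and PSMA4 lost its call there. PSMB8, PSME1, PSMB4 and PSMG4 kept theirs under every alternative. Over all genes tested, 31.4% were higher and 31.2% lower on drug against off drug. The shares were 28.4% and 26.6% off drug against parental cells, and 33.4% and 32.9% on drug against parental cells.

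The window of PSMB9 held no paired GAAA repeat, which says only that these letters are not in it. Its 250 bases before the start site are shown because PSMB9 changed most on drug among the proteasome genes. Capitals mark a CCAAT box, whose first base lies 243 bases before the start site, and GCCTCGTCA, the other strand of TGACNNNGC, whose first base lies 148 bases before it.
PSMB9, chr6:32853942-32854191, plus strand: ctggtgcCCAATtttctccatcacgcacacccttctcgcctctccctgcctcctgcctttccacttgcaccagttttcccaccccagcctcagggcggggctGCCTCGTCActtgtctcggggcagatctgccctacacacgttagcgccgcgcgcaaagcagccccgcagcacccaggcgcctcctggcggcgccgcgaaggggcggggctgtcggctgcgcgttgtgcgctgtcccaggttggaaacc
CCAAT was in windows of 47.6% of the 42 genes, against 39.7% of all genes, and TGACNNNGC in 35.7% (15 genes), against 16.1%. TTCNNNGAA, which reads the same on both strands, was in 19.0%, against 9.38%. No match of one of these 4 motifs overlapped a match of another in the proteasome windows.

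Several interferon-response regulators and antigen-presentation partners of the immunoproteasome fell on drug. Of 15 genes on this list, 9 were lower and 1 higher on drug than off drug, with a median of -0.58, where 31.2% of all genes tested were lower and 31.4% higher. By library size 9 were lower and 4 higher, and in TPM 6 were lower and 3 higher, with TAP2 turned to 0.36. Those lower with TMM scaling included IRF1, the interferon-response factor known to drive PSMB9 (-0.85 ± 0.09, adjusted p = 5.1e-07), IRF2 (-0.91 ± 0.08, adjusted p = 8.2e-08) and NLRC5, the transactivator of MHC class I genes (-1.01 ± 0.12, adjusted p = 1.8e-06, a call lost in TPM). TAP1, the peptide transporter gene that shares a promoter region with PSMB9, had 31, 26 and 30.4 CPM on drug, 52.5, 59.9 and 55.5 CPM off drug and 56, 60.8 and 71.3 CPM in parental libraries. The on-drug libraries of TAP1 lay below all others (-0.94 ± 0.10 against off drug, adjusted p = 7.9e-07).

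Off drug against parental cells, 7 of the 15 were higher and 1 lower, with a median of 0.16 and a background of 28.4% higher and 26.6% lower, and IRF1 (0.26 ± 0.09, adjusted p = 0.019, a call lost with upper-quartile scaling), NLRC5 (0.41 ± 0.12, adjusted p = 0.0073, a call lost in TPM) and TAP2 (0.81 ± 0.10, adjusted p = 7.8e-06) were among those higher. Against parental cells, 2 were higher and 6 lower on drug (background 33.4% and 32.9%), which became 6 and 6 by library size and 5 and 4 in TPM, with IFNGR2, a chain of the interferon-gamma receptor, at -1.13 ± 0.08 (adjusted p = 7.4e-09).

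The alternative activators split in NCI-H358-R, with PSME1 and PSME2 lower and PSME3 and PSME4 higher than in parental cells, except that PSME2 on drug turned to 0.08 in TPM. PSME1 and PSME2 encode the interferon-inducible activator that works with the immunoproteasome. PSME1 (ENSG00000092010.15, chromosome 14, 24136158 to 24138967, plus strand) had 167, 194 and 174 CPM on drug, 188, 183 and 200 CPM off drug and 286, 270 and 322 CPM in parental libraries. Every resistant library lay below every parental one. PSME1 was lower off drug than in parental cells (-0.62 ± 0.09, adjusted p = 1.8e-05) and on drug than in parental cells (-0.71 ± 0.09, adjusted p = 2.4e-06), and was not called between on-drug and off-drug cells (-0.09 ± 0.09, adjusted p = 0.37), where it turned to 0.04 with upper-quartile scaling, 0.16 by library size and 0.14 in TPM.

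PSME2 averaged 158 CPM off drug and 204.7 CPM in parental cells (-0.37 ± 0.08, adjusted p = 0.0014). Its call on drug against parental cells (-0.29 ± 0.08, adjusted p = 0.0061) was lost by library size and turned to 0.08 in TPM. Unlike PSMB8 and PSMB9, PSME1 and PSME2 were not called between on-drug and off-drug cells with TMM scaling. For PSME2 the value there was 0.08 ± 0.08 (adjusted p = 0.42). It was called higher on drug than off drug with upper-quartile scaling, by library size and in TPM, by up to 0.34.

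PSME3 (ENSG00000131467.11, chromosome 17, 42824385 to 42843758, plus strand) encodes a nuclear activator that degrades several regulators without ubiquitin. It had 186, 175 and 183 CPM on drug, 148, 143 and 148 CPM off drug and 85, 88.9 and 87 CPM in parental libraries. The 3 states did not overlap. PSME3 was higher off drug than in parental cells (0.75 ± 0.07, adjusted p = 2.6e-07), on drug than off drug (0.31 ± 0.07, adjusted p = 0.0013) and on drug than in parental cells (1.06 ± 0.07, adjusted p = 2.3e-09), and kept these calls under every alternative.

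PSME4, a large nuclear activator known for histone turnover in sperm formation, had 76.2, 63.5 and 62.3 CPM on drug, 68.1, 75.2 and 63.8 CPM off drug and 44.8, 45 and 34.8 CPM in parental libraries. Resistant libraries lay above parental ones (0.73 ± 0.11 off drug against parental cells, adjusted p = 4.3e-05). On drug against off drug it was not called with TMM (-0.04 ± 0.11, adjusted p = 0.79) but was 0.56 higher on the log2(TPM + 1) scale. The TPM ratio of PSME1 plus PSME2 to PSME3 was 7.02 ± 0.5 on drug, 7.41 ± 0.45 off drug and 19.3 ± 2.7 in parental cells (SD, n = 3 each), with resistant and parental libraries apart.

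**Figure D4:**
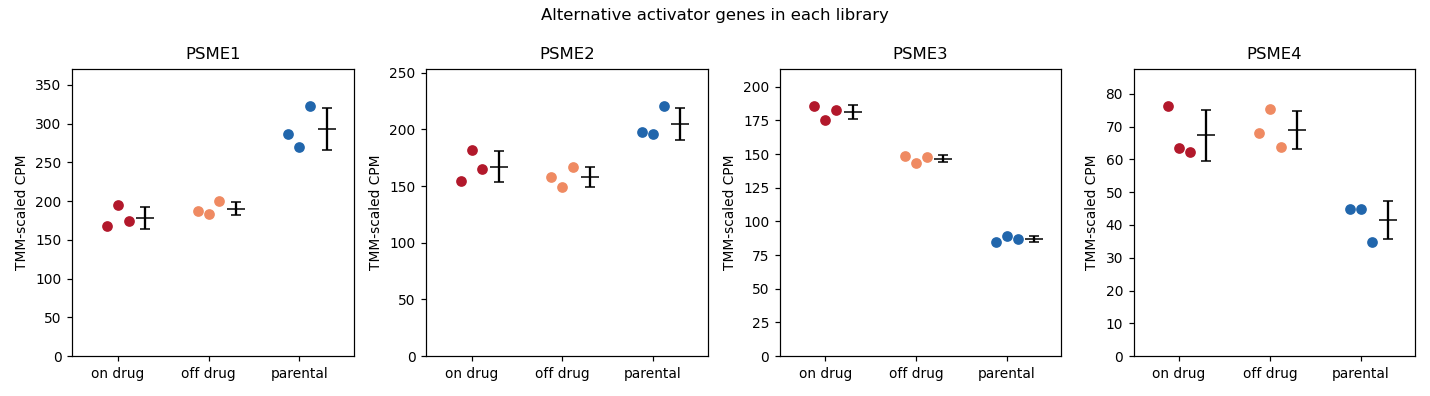
TMM-scaled CPM (y axis, from 0) of the 4 alternative activator genes in each library on drug, off drug and in parental cells, with the mean and SD of 3 libraries. PSME1 and PSME2 lie lower, and PSME3 and PSME4 higher, in both resistant states than in parental cells (PSME2 on drug turns to 0.08 in TPM), and PSME3 is highest on drug.

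The cap genes taken by the symbol rule rose or were not called in off-drug resistant cells. Of 17 cap genes, 9 were higher off drug than in parental cells (52.9%) and 0 lower, where 28.4% of all genes tested were higher and 26.6% lower, with a median log2 fold change of 0.21 against 0.00 over all genes. Of 15 core genes (alpha and beta, without the immunoproteasome), 3 were higher and 3 lower, with a median of 0.08, which became 7 and 3 (median 0.16) in TPM and 6 and 3 without parental replicate 3. The number of cap genes called higher ranged from 6 to 11 over the alternatives, and none of the 17 was called lower under any of them. PSMC4, PSMC5, PSMD2, PSMD4, PSMD6 and PSMD12 kept the call under every alternative, while PSMC2, PSMC3 and PSMD3, with log2 fold changes of 0.21 to 0.23, lost it with upper-quartile scaling and with the stricter filter. The 3 also lost it without off-drug replicate 1, off-drug replicate 3, parental replicate 1 or parental replicate 2, each of which left 6 cap genes higher, and PSMC3 and PSMD3 without on-drug replicate 3 or off-drug replicate 2, which left 7. SEM1, a lid subunit outside the symbol rule, went the other way. Off drug against parental cells it was lower by library size (-0.30, adjusted p = 0.0052) and with upper-quartile scaling (-0.36, adjusted p = 0.0033). In TPM it was not called (-0.18). The ubiquitin receptor ADRM1 was not called on any of these scales.

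The cap gene with the largest log2 fold change off drug against parental cells was PSMD2 (ENSG00000175166.17, chromosome 3, 184298709 to 184309054, plus strand), the base subunit on which shuttle factors dock. It had 234, 202 and 219 CPM on drug, 206, 204 and 194 CPM off drug and 105, 106 and 112 CPM in parental libraries. Every resistant library lay above every parental one, and the resistant states overlapped each other. PSMD2 was higher off drug (0.91 ± 0.08, adjusted p = 9.4e-08) and on drug (1.03 ± 0.08, adjusted p = 1.1e-08) than in parental cells. With TMM scaling it was not called on drug against off drug (0.12 ± 0.08, adjusted p = 0.20). There it was called higher with upper-quartile scaling, by library size and in TPM with the filter, by up to 0.38.

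PSMC5 (ENSG00000087191.13, chromosome 17, 63827152 to 63832026, plus strand), an ATPase of the base, was called higher at both steps under every alternative. It had 207, 180 and 204 CPM on drug, 141, 136 and 134 CPM off drug and 89.2, 96.8 and 102 CPM in parental libraries, with no overlap. Its log2 fold changes were 0.52 ± 0.08 on drug against off drug (adjusted p = 3.9e-05), 0.51 ± 0.08 off drug against parental cells (adjusted p = 7.2e-05) and 1.04 ± 0.08 on drug against parental cells (adjusted p = 1.8e-08). PSMC4, another ATPase of the ring, was higher off drug than in parental cells (0.70 ± 0.08, adjusted p = 3.8e-06) but not called on drug against off drug (0.13 ± 0.08, adjusted p = 0.18), where it was called higher with upper-quartile scaling (0.26), by library size (0.39) and in TPM (0.35). PSMC1 and PSMC6, ATPases of the same ring, were not called in any comparison in the main fit (TMM, all 9 libraries). PSMC1 was called higher on drug than in parental cells without parental replicate 3, by library size and in TPM.

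Other cap genes changed with the drug. PSMD1, a scaffold of the base, had 92.9, 81.1 and 86 CPM on drug, 60.7, 62.1 and 58.6 CPM off drug and 52.7, 60.9 and 60.1 CPM in parental libraries. The on-drug libraries stood above all others (0.52 ± 0.08 on drug against off drug, adjusted p = 5.4e-05), and off drug against parental cells PSMD1 was not called (0.06 ± 0.08, adjusted p = 0.55, and -0.03 with upper-quartile scaling). The lid subunit PSMD11 had the same order (0.32 ± 0.08 on drug against off drug, adjusted p = 0.0016, and 0.05 ± 0.08 off drug against parental cells, adjusted p = 0.61, which turned to -0.04 with upper-quartile scaling and -0.17 in TPM). PSMC3, an ATPase, was 0.31 ± 0.09 higher on drug than off drug (adjusted p = 0.0047).

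In the lid, PSMD8 (-0.31 ± 0.09, adjusted p = 0.0072), PSMD12 (-0.24 ± 0.07, adjusted p = 0.01) and PSMD14, the deubiquitinase (-0.33 ± 0.09, adjusted p = 0.0043), were called lower on drug than off drug. Each of these 3 calls was lost with upper-quartile scaling and by library size, where PSMD12 turned to 0.02, and those of PSMD8 without off-drug replicate 3 and of PSMD12 without off-drug replicate 1. In all, 4 cap genes were higher (23.5%) and 3 lower (17.6%) on drug than off drug, with a median of 0.00. Over all genes tested, 31.4% were higher and 31.2% lower. The cap counts became 8 and 0 with upper-quartile scaling, 14 and 0 by library size and 9 and 1 in TPM. Among all called genes, 60%, 68.5% and 64% were higher on those scales, against 50.1% with TMM. Of the core genes 2 were higher and 2 lower on drug than off drug (13.3% each), but 4 and 0 with upper-quartile scaling and 8 and 0 by library size or in TPM. Against parental cells 10 cap genes were higher (58.8%) and 2 lower (11.8%) on drug, with a median of 0.36, and 15 and 1 by library size or in TPM. Over all genes tested, 33.4% were higher and 32.9% lower in that comparison. Among all called genes, 64.3% were higher by library size and 69.7% in TPM. The core genes on drug against parental cells were 5 higher (33.3%) and 4 lower (26.7%) with a median of 0.09. They were 9 and 2 (median 0.31) by library size and 9 and 1 (median 0.42) in TPM.

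PSMD12, which links lid subunits to each other, was highest off drug. It had 175, 160 and 170 CPM on drug, 204, 202 and 189 CPM off drug and 122, 127 and 123 CPM in parental libraries. The parental libraries were lowest, with the on-drug libraries between the others and no overlap. Its log2 fold changes were 0.68 ± 0.07 off drug (adjusted p = 1.3e-06) and 0.44 ± 0.07 on drug (adjusted p = 6.6e-05), each against parental cells.

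**Figure D5:**
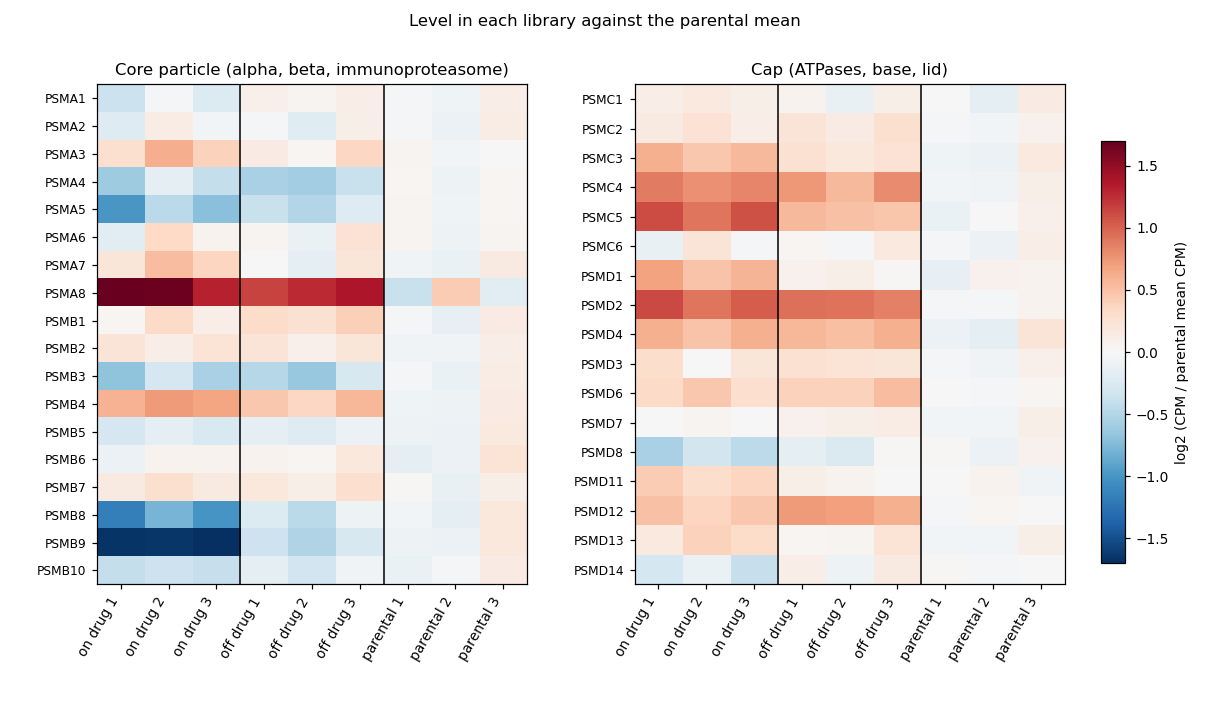
Log2 of the CPM of each core gene (left) and cap gene (right) in each library over the parental mean, with libraries in columns, on drug first, then off drug, then parental. Red is above and blue below the parental mean. PSMB9 and PSMB8 are the darkest blue rows on drug, and PSMC4, PSMC5 and PSMD2 are red in all 6 resistant libraries.

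NFE2L1, the factor that raises proteasome genes when proteasome activity is short, binds antioxidant-type elements of the form TGACNNNGC. Windows were at hand for 16 of the 17 cap genes, and 5 held this motif (PSMC4, PSMC5, PSMD1, PSMD12 and PSMD3). Off drug against parental cells, 4 of these 5 were higher, as were 4 of the 11 without it, where 28.4% of all genes tested were higher. The calls of PSMD3, with the motif, and of PSMC2 and PSMC3, without it, were lost with upper-quartile scaling. Whether the motif bears on these calls was not tested. The matches are shown for those 5 genes, in capitals, as the reverse complement (GC, any 3 bases, GTCA) where the motif lies on the other strand.
PSMC4, chr19:39971182-39971210, plus strand: acagaggccgGCTTGGTCActatggagga
PSMC5, chr17:63827654-63827682, plus strand: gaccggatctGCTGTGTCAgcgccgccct
PSMD1, chr2:231056896-231056916, plus strand: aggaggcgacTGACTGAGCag
PSMD12, chr17:67366724-67366752, minus strand: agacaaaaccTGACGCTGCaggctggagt
PSMD3, chr17:39980760-39980788, plus strand: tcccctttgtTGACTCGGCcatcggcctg
PSMD3, chr17:39980830-39980856, plus strand: gtttgcagctGCTCCGTCAtcgtgcgg
The PSMC4, PSMD1 and second PSMD3 matches lie after the start site and the others before it. A match is a sequence description, and binding was not measured here.

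NFE2L1 itself had 153, 122 and 146 CPM on drug, 184, 186 and 168 CPM off drug and 133, 151 and 131 CPM in parental libraries. It was higher off drug than in parental cells (0.37 ± 0.09, adjusted p = 0.003), lower on drug than off drug (-0.35 ± 0.09, adjusted p = 0.0037) and not called on drug against parental cells (0.02 ± 0.09, adjusted p = 0.86). The call between the resistant states was lost by library size and in TPM. Of 10 regulator genes, 6 were higher and 1 lower off drug than in parental cells (background 28.4% and 26.6%), 0 higher and 6 lower on drug than off drug (31.4% and 31.2%), and 1 higher and 3 lower on drug than in parental cells (33.4% and 32.9%). On drug against off drug these became 3 higher and 3 lower by library size and 2 and 3 in TPM. The 6 that were lower on drug than off drug with TMM scaling included NGLY1 and DDI2, the enzymes that process NFE2L1 protein, whose calls were lost by library size and in TPM, and MAFF, a small MAF partner (-2.36 ± 0.11, adjusted p = 2.7e-11).

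The core rings showed changes in both directions. In the alpha ring PSMA5 was lower on drug than off drug (-0.34 ± 0.11, adjusted p = 0.016), off drug than in parental cells (-0.36 ± 0.11, adjusted p = 0.012) and on drug than in parental cells (-0.70 ± 0.11, adjusted p = 4.6e-05). It had 145, 208 and 175 CPM on drug, 220, 202 and 245 CPM off drug and 295, 272 and 292 CPM in parental libraries. Parental libraries lay above all others, and the on-drug and off-drug libraries overlapped. The call on drug against off drug was lost without on-drug replicate 1 or off-drug replicate 3 and under 5 changes of scale, and that off drug against parental cells without off-drug replicate 2. The call on drug against parental cells was kept under every alternative.

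PSMA4 was lower off drug (-0.50 ± 0.10, adjusted p = 0.00057) and on drug (-0.38 ± 0.10, adjusted p = 0.0036) than in parental cells, the second not by library size or in TPM. PSMA3 (0.43 ± 0.10, adjusted p = 0.0011) and PSMA7 (0.37 ± 0.11, adjusted p = 0.0061) were higher on drug than in parental cells. PSMA1 was lower on drug than off drug (-0.28 ± 0.09, adjusted p = 0.013), a call lost without on-drug replicate 1, with upper-quartile scaling, by library size and in TPM. PSMA2 and PSMA6 were not called in any comparison with TMM scaling.

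PSMA8 (ENSG00000154611.15), the alpha subunit of testis proteasomes, was near the detection floor. It had 1.91, 1.88 and 1.48 CPM on drug, 1.31, 1.43 and 1.54 CPM off drug and 0.458, 0.801 and 0.521 CPM in parental libraries. Resistant libraries lay above parental ones, 1.28 ± 0.30 on the log2 scale off drug (adjusted p = 0.0018) and 1.57 ± 0.29 on drug (adjusted p = 0.00016). Its mean over all libraries was 1.115 TPM, against 1041 TPM for PSMA6.

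In the beta ring, PSMB4 rose and PSMB3 fell in NCI-H358-R. PSMB4, a structural subunit, had 501, 548 and 529 CPM on drug, 458, 424 and 492 CPM off drug and 317, 313 and 368 CPM in parental libraries, with no overlap between states. It was higher off drug (0.46 ± 0.09, adjusted p = 0.0003) and on drug (0.66 ± 0.09, adjusted p = 5.4e-06) than in parental cells, and missed the threshold on drug against off drug (0.20 ± 0.09, adjusted p = 0.054), though it passed it under 14 of 21 alternatives. PSMB3, another structural beta subunit, averaged 178 ± 25.5 CPM on drug, 183.8 ± 23.9 off drug and 251.9 ± 21.5 in parental cells (SD, n = 3 each). It was lower off drug (-0.45 ± 0.11, adjusted p = 0.0027) and on drug (-0.50 ± 0.11, adjusted p = 0.00091) than in parental cells, the second not in TPM. PSMB1 was higher off drug than in parental cells (0.33 ± 0.09, adjusted p = 0.0074), a call lost with upper-quartile scaling. PSMB2 was called on drug against parental cells alone (0.19 ± 0.08, adjusted p = 0.046), a call lost under 9 alternatives, among them leaving out any 1 library other than on-drug replicate 2 or parental replicate 3.

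Within a ring each subunit is built in at equal number, yet transcript levels differed widely between genes. Over the 9 libraries the alpha genes PSMA1 to PSMA7 ranged from 112 TPM for PSMA5 to 1041 TPM for PSMA6, 9.32-fold. The beta genes PSMB1 to PSMB7 ranged from 47.1 TPM for PSMB2 to 717.9 TPM for PSMB4, 15.3-fold. The ATPase genes ranged from 55.4 TPM for PSMC2 to 228.1 TPM for PSMC1, 4.12-fold. PSMC1 shares sequence with the processed pseudogene PSMC1P1, listed at a mean of 72.5 TPM, so its level is uncertain.

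Summed over genes in TPM, the ratio of cap to core was 0.403, 0.323 and 0.359 on drug, 0.39, 0.393 and 0.361 off drug and 0.318, 0.325 and 0.318 in parental libraries. Off-drug libraries lay above parental ones, and the on-drug libraries spread over both ranges. In counts it was 0.806, 0.636 and 0.719 on drug, 0.733, 0.758 and 0.679 off drug and 0.583, 0.61 and 0.589 in parental libraries, so every resistant library lay above every parental one. The 48 genes together held 1.03 ± 0.033% of TPM on drug, 0.869 ± 0.024% off drug and 0.806 ± 0.018% in parental cells, and 0.813 ± 0.043, 0.675 ± 0.03 and 0.656 ± 0.027% of counts. The share was highest on drug in both units, before the TMM factors, which are larger for on-drug libraries.

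Among the chaperones PSMG1 stood out on drug. PSMG1 (ENSG00000183527.12, chromosome 21, 39174769 to 39183851, minus strand) pairs with PSMG2 to start the alpha ring. It had 38.9, 43.6 and 39.2 CPM on drug, 25.5, 22.8 and 25.9 CPM off drug and 22.1, 20.7 and 21.4 CPM in parental libraries, with no overlap. It was higher on drug than off drug (0.71 ± 0.09, adjusted p = 2.4e-06) and than in parental cells (0.92 ± 0.09, adjusted p = 1.1e-07), and just missed the threshold off drug against parental cells (0.21 ± 0.09, adjusted p = 0.051). Its partner PSMG2 was not called (0.01 ± 0.08 on drug against off drug, adjusted p = 0.93), but was called higher there by library size (0.27) and on the log2(TPM + 1) scale (0.16).

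PSMG3 and PSMG4, which also act as a pair, went opposite ways in off-drug NCI-H358-R cells. PSMG4 was higher (0.63 ± 0.08, adjusted p = 1.3e-05) and PSMG3 lower (-0.47 ± 0.10, adjusted p = 0.00067) off drug than in parental cells. On drug against parental cells PSMG4 was higher (0.54, adjusted p = 3.5e-05) and PSMG3 lower (-0.35, adjusted p = 0.0043). That PSMG3 call was lost by library size and turned in TPM, to at most 0.09. PSMD10, a chaperone of the cap base also known as gankyrin, was lower on drug than off drug at 94.8, 112 and 91.5 CPM on drug and 136, 131 and 153 CPM off drug, with no overlap (-0.49 ± 0.10, adjusted p = 0.00033). The other 2 base chaperones, PSMD5 and PSMD9, were not called in any comparison in the main fit (TMM, all 9 libraries). Off drug against parental cells PSMD9 missed the threshold (-0.28, adjusted p = 0.06). It was called lower there under several alternatives, among them the stricter filter and leaving out on-drug replicate 2, off-drug replicate 3 or parental replicate 2. On drug against off drug PSMD9 was called higher with upper-quartile scaling, by library size and in TPM. PSMF1, an inhibitor that binds the core, was called lower on drug than off drug (-0.22 ± 0.08, adjusted p = 0.024) and than in parental cells (-0.21 ± 0.08, adjusted p = 0.028), and both calls were lost or turned by scaling. They were also lost without on-drug replicate 2, the first without any 1 off-drug library and the second without parental replicate 3.

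Proteasome partners with other symbols went both ways. Of 16 partner genes, 9 were lower and 3 higher on drug than off drug (median -0.30), where 31.2% of all genes were lower and 31.4% higher, and these became 6 and 4 by library size and 4 and 4 in TPM. In off-drug cells against parental cells 9 were higher and 1 lower (median 0.26, background 28.4% and 26.6%), and on drug against parental cells 5 and 3 (median 0.01, background 33.4% and 32.9%). ZFAND5, a stimulator of the proteasome, was lower on drug than off drug (-0.82 ± 0.08, adjusted p = 1.2e-07), as were the cap-assembly factor PAAF1 (-0.66 ± 0.08, adjusted p = 1.9e-06) and AKIRIN2, which brings proteasomes into the nucleus (-0.74 ± 0.08, adjusted p = 1.1e-06). The lid subunit SEM1 (0.39 ± 0.09, adjusted p = 0.00097) and the ubiquitin receptor ADRM1 (0.34 ± 0.10, adjusted p = 0.0061) were higher on drug than off drug. Of 6 ubiquitin and ubiquitin-activating genes, 4 were lower and 0 higher on drug than off drug, among them UBA6, a ubiquitin-activating enzyme (-1.19 ± 0.10, adjusted p = 2.5e-08), but 2 were lower and 1 higher by library size and in TPM. In off-drug cells 4 of the 6 were higher and 2 lower than in parental cells, or 4 and 1 in TPM.

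The 2 name matches rose in NCI-H358-R. PSMC3IP, a partner of recombinases in meiosis, had 17.5, 18.1 and 19.1 CPM on drug, 11.1, 9.66 and 10.3 CPM off drug and 4.25, 3.37 and 6.29 CPM in parental libraries. The 3 states did not overlap, and it was called higher in all 3 comparisons (0.81 ± 0.15 on drug against off drug, adjusted p = 0.00017, and 1.16 ± 0.16 off drug against parental cells, adjusted p = 2.1e-05). PSME3IP1, which binds PSME3 in the nucleus, was higher on drug than in parental cells (0.36 ± 0.08, adjusted p = 0.00089). Off drug against parental cells it was also called higher (0.24, adjusted p = 0.02). That call was lost with upper-quartile scaling, with no filter and on some TPM scales. Leaving out off-drug replicate 1, off-drug replicate 2 or parental replicate 2 also lost it.

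In 18 of the 48 genes an exon overlaps another gene listed at 1 TPM or more, among them PSMB8 and PSMB9 with each other, PSMC5 with FTSJ3, PSME1 with EMC9 and PSME3 with BECN1. Whether counting used strand is not known from the labels, so reads from the shared stretches cannot be assigned with certainty.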

How the data were processed

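The authors deposited 1 table of estimated counts and 1 of TPM (transcript abundance adjusted for length and depth) per gene, for 60230 genes in 9 libraries. The submitters' processing notes name Salmon 0.14.1 and GRCh38.p13, with bcl2fastq 2.17 and FastQC 0.12.1. The gene annotation, the strand setting and how transcripts were summed are not given in the labels. Libraries were poly(A)-selected and paired-end, per the labels' protocols.

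Estimated counts were rounded to whole numbers. Genes were kept by edgeR's filter (minimum count 10, total 15), which left 17307 of them. One quasi-likelihood fit in edgeR 4.0.16 (R 4.3.3) held all 9 libraries, with a mean per state, TMM factors and 6 residual degrees of freedom, and p-values were adjusted by Benjamini-Hochberg over all genes tested. SE was derived as |log2 fold change| divided by the root of F. CPM values are TMM-scaled, and TPM served for levels between genes and for shares. Gene positions are those of GENCODE on GRCh38. The floor of 3 counts covers counting error only, while SD and SE include the spread between libraries. No pair of libraries agreed within sampling noise (lowest chi-square per degree of freedom 5.114), so none were merged.

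The alternatives were other scalings, other filters, DESeq2 1.42.0, limma voom (limma 3.58.1), limma on log2(TPM + 1) and log2(TPM + 0.1) of genes with a mean of at least 1 TPM, no TPM filter, a replicate block, the compared states alone, and each library left out. The rule let every member be named. The members and lists were chosen with earlier results of these data known.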

Additional observations from a re-analysis of the deposited data

How the results depend on the processing

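Over 147 gene results (49 genes, 3 comparisons), DESeq2 kept direction and side of the threshold in 144, RLE size factors in 146, limma voom in 145, upper-quartile factors in 115, library size in 96 and limma on log2(TPM + 1) in 99; the cause was not tested. Calls kept under every alternative numbered 10 of 18 on drug against off drug, 17 of 25 off drug against parental cells and 25 of 35 on drug against parental cells. Proteasome genes called higher on drug than off drug were 8, but 17 with upper-quartile factors, 29 by library size, 25 with log2(TPM + 1), 25 with log2(TPM + 0.1) and 23 with no TPM filter; those called lower were 9, but 3 with upper-quartile factors, 3 by library size and 4 on each TPM scale. Lower calls off drug against parental cells were 7, but 11 with upper-quartile factors. On drug against parental cells, higher calls were 19, but 29 by library size and 30 on each TPM scale, and lower calls 14, but 6 by library size and 5 on each TPM scale. The share of called genes that were higher also moved with upper-quartile factors, to 60% on drug against off drug and 43.4% off drug against parental cells. With counts in place of TPM the immunoproteasome share was 26.9% on drug, 36.9% off drug and 41.8% in parental cells. Leaving out 1 library gave 6 to 10 higher and 6 to 10 lower on drug against off drug, 12 to 19 and 6 to 9 off drug against parental cells, and 18 to 24 and 11 to 14 on drug against parental cells. Among values called on at least 1 of the 2 scales compared, directions turned on drug against off drug by library size for PSMA2 (0.25), PSMC2 (0.22), PSMC6 (0.22), PSMD12 (0.02), PSMD3 (0.20), PSMD6 (0.17), PSMD7 (0.17) and PSMF1 (0.03), and in TPM for PSME4 (0.56 with either filter, 0.59 with the smaller pseudocount), PSMB10 (0.28, 0.29 with the smaller pseudocount), PSMB5 (0.18), PSMB3 (0.22) and, with no filter, PSMC2 (0.15) and PSMG4 (0.16). They turned on drug against parental cells in TPM for PSME2 (0.08), PSMB5 (0.15), PSMD10 (0.05), PSMD9 (0.33), PSMD14 (0.05), PSMG3 (0.08 and 0.09), PSMB10 (0.31), PSMF1 (0.12, and 0.01 by library size) and PSMG2 (0.14, no filter). Of 9 same-number pairs of libraries, 3 correlated above 0.1 (range -0.18 to 0.234), and different-number pairs ranged from -0.261 to 0.239. With 3 libraries a state, these values cannot settle whether replicate numbers mark pairs. With a replicate block 145 of 147 results kept their call, and the counts were 9 higher and 9 lower on drug against off drug, 16 and 7 off drug against parental cells, and 19 and 13 on drug against parental cells. With 3 libraries a state, small differences in low genes such as PSMA8 are limited by depth.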

Other observations

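Of the 51 non-coding and pseudogene name matches, 5 were listed at a mean of at least 1 TPM. PSMA3-AS1, an antisense long non-coding RNA beside PSMA3, was listed at 49, 46 and 42 TPM on drug, 21.6, 22.6 and 18.3 TPM off drug and 14.9, 13.1 and 10.7 TPM in parental libraries. The 3 states did not overlap. The pseudogene PSMC1P1 was listed at 88, 80.6 and 80.1 TPM on drug, 69.2, 66 and 71.4 TPM off drug and 68.7, 61.3 and 67.2 TPM in parental libraries, with the on-drug libraries above the others. In the gene models used, no exon of PSMA3 overlaps PSMA3-AS1 and none of PSMC1 overlaps PSMC1P1. PSMC1P1 shares sequence with PSMC1, so their reads cannot be told apart with certainty.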
